A study of Mus musculus with 14 samples.

Results

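The genes described here are the nuclear-encoded subunits of the mitochondrial respiratory chain and ATP synthase, in microglia sorted from mouse retinas. Members were taken by gene name: names starting Nduf plus a subunit letter and number, the names Sdha to Sdhd, and names starting Uqcr, Cox4 to Cox8 or Atp5, without pseudogene names ending in -ps. This gave 83 of the 47273 genes in the series-wide table: 37 for complex I, 4 for complex II, 8 for complex III, 18 for complex IV and 16 for complex V. The rule used no measured value. A name rule also takes in genes outside the complexes it points to. Ndufa4 carries a complex I name and is known as a subunit of complex IV, Cox7a2l is known as a factor that joins complexes into supercomplexes, and Atp5s encodes a coupling factor rather than a subunit.

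The respiratory chain passes electrons from NADH and succinate to oxygen and pumps protons across the inner mitochondrial membrane, and complex V uses that gradient to make ATP. Complexes I, III, IV and V are each built from subunits of both the nuclear and the mitochondrial genome, while complex II is wholly nuclear-encoded and also works in the tricarboxylic acid cycle. In macrophages and microglia the balance of oxidative phosphorylation and glycolysis is known to shift with the activation state.

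SMART-Seq2, which amplifies whole transcripts as cDNA from few cells, was run on 14 libraries of 1 retina each, with 100 to 600 cells sorted per retina as CD11b+, Ly6c- and Fcrls+ microglia. All mice were wild-type C57BL/6 aged 12 weeks. Microbead retinas (n = 3, described as glaucoma in the labels) came from injected eyes and contralateral retinas (n = 3) from eyes opposite to such an injection. Sham retinas (n = 4) had received a sham injection, and naive retinas (n = 4) no treatment. No label ties libraries to mice, so p-values measure only the spread between these libraries, and a measure of eye pressure was not used here.

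Libraries held 1.34 M to 13.996 M assigned reads with a median of 11.5 M. Microbead 1 stood apart with the fewest reads, 1.34 M, and with contralateral 2 it had reads in fewer than 12000 genes (10167 and 10306). Reads are PCR copies without molecular identifiers. The sort genes Itgam and Fcrls were read in every library, and Ly6c2 had 0 reads in all 14. The summed level of 14 rod photoreceptor genes ran from 555 to 4594 CPM (counts per M reads, TMM-scaled) in microbead, 2412 to 3971 in contralateral, 927 to 1732 in sham and 286 to 3499 in naive libraries. That of 10 monocyte and macrophage genes, with Ly6c2 at 0, ran from 923 to 2207 CPM in microbead, 380.1 to 1435 in contralateral, 573 to 1271 in sham and 459.6 to 629.6 in naive libraries. That of 7 border macrophage genes, all of them read, ran from 134 to 233 CPM in microbead, 716 to 1022 in contralateral, 365 to 581 in sham and 339 to 488 in naive libraries, and that of 8 microglia genes from 12203 to 27152 in microbead, 21291 to 33076 in contralateral, 28025 to 31684 in sham and 18721 to 29489.9 CPM in naive libraries. Neutrophil, lymphocyte and erythrocyte lists stayed below 1 CPM in sum in every library. In sum, the monocyte and macrophage list was thus higher and the border macrophage list lower in every microbead than in every naive library. Single genes did not all follow. Ccr2 of the monocyte list had 0, 25.3 and 21.7 CPM in microbead and 2.17, 3.30, 5.33 and 0 CPM in naive libraries. Its highest value was 40.2 CPM in sham 2. The part of both lists in the results below was not tested.

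Of the 83 members, 77 passed a filter on low counts. The 6 that did not were Ndufa4l2, Cox4i2, Cox7a1, Cox7b2, Cox8b and Cox8c, all alternative forms of a subunit. Levels between genes were compared as FPKM, that is per length. The highest mean over the 14 libraries was that of Cox4i1 with 909.6 FPKM, followed by Cox8a with 638 and Atp5b with 479. In all, 46 members averaged above 100 FPKM and 9 below 10.

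For each paired subunit of complex IV, the ubiquitous form had a higher mean FPKM in all 4 groups than the form known from muscle, lung or testis. Cox4i1, the regulatory subunit that binds ATP in complex IV, averaged 1983 ± 1638 FPKM in microbead (SD, n = 3), 869.7 ± 337 in contralateral (n = 3), 534 ± 95.03 in sham (n = 4) and 510.3 ± 66.6 in naive libraries (n = 4). Its alternative Cox4i2, a form known from lung, had 0 reads in every microbead, contralateral and sham library and 18, 2, 13 and 0 reads in the naive libraries. Cox8b had 0.0796 CPM in naive 3 and 0 in the other libraries, and Cox8c, Cox7b2 and Ndufa4l2 had 0 reads throughout. Cox7a1, the muscle form of Cox7a2, was read in microbead 2 at 2.34 CPM, in contralateral 3 at 0.32 CPM and in naive 2 at 0.37 CPM, and not elsewhere.

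Cox6a2, the heart and muscle form of Cox6a1, was the highest of these muscle forms in microbead libraries. Its level was 0, 18.7 and 19.2 CPM in microbead, 1.52, 0 and 0.32 CPM in contralateral, 0 to 2.86 CPM in sham and 10.03, 0, 0 and 0 CPM in naive libraries. Microbead 2 and 3 were above all others, microbead 1 had no read and naive 1 came next. The log2 fold change of microbead over naive was 2.34 with an SE of 2.36 and did not pass edgeR's quasi-likelihood test (Benjamini-Hochberg adjusted p = 0.819). Cox6b2, the testis form of Cox6b1, had reads in 9 libraries, at 0, 4.02 and 2.197 CPM in microbead, 2.28, 0 and 0.128 CPM in contralateral, 0 to 1.22 CPM in sham and 2.30, 0, 0.876 and 0 CPM in naive libraries.

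Promoter windows from RefSeq (GRCm38.p6, 250 bases before to 50 after a gene's start) were matched by symbol for 66 of the 83 members. Nuclear respiratory factor 1 (NRF1), GABP of the ETS family and YY1 are known to bind promoters of respiratory genes. Searched on both strands, with overlaps between motifs counted, TGCGCA (NRF1, short) occurred in 25.8% of the members' windows against 8.79% of all 27025 genes with a window. GCGCANGC (NRF1, core) occurred in 34.8% against 11.2%, CCGGAAG (ETS core) in 24.2% against 9.93%, and AAGATGGC (YY1) in 13.6% against 3.19%. At least 1 of both NRF1 motifs and the ETS core was found for 28 of 52 members with transcripts up to 1000 bases and for 7 of 14 longer ones. The windows below are shown because these 3 genes carry the main contrasts: Cox8a passed the test, and Sdhb and Sdha lay on opposite sides of 0 within complex II. They give the bases upstream of both the RefSeq and the GENCODE M21 start, 5′ to 3′ on the gene's strand, with motif matches in capitals.
Cox8a, chr19:7217617-7217866, minus strand: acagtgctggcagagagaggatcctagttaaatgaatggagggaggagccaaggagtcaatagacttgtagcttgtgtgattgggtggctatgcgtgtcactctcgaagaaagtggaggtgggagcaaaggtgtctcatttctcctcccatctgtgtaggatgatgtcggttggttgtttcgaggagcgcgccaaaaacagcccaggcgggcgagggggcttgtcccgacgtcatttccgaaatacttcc
Sdhb, chr4:140961021-140961202, plus strand: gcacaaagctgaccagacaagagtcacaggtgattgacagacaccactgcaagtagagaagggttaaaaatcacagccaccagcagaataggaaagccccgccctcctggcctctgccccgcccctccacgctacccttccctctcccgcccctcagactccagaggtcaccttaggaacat
Sdha, chr13:74350281-74350490, minus strand: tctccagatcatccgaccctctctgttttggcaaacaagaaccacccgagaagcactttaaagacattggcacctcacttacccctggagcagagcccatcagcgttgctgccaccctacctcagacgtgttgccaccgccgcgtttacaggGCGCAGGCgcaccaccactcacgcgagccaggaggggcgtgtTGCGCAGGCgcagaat
In the Sdha window the NRF1 core occurred 2 times, the second match overlapping the short motif. None of the 4 motifs occurred in the Cox8a and Sdhb bases shown, but the whole windows, which run on past the start, hold the ETS core for Cox8a and the NRF1 core and the ETS core for Sdhb. A match is a string of letters in this window and no measure of binding.

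Microbead libraries were compared with sham to ask how microglia differ beyond the injection, with naive for the untreated retina, and with contralateral for the opposite eye. These 3 comparisons share the microbead libraries. Subunit genes stood higher in microbead retinas as a group. The median log2 fold change of the 77 members was 0.98 over sham, 0.99 over naive and 0.92 over contralateral, where all 14279 genes tested had medians of -0.12, -0.14 and -0.08. Fold changes were positive for 69 of 77 members over sham, 71 over naive and 62 over contralateral. In bulk libraries, a different number of cells of a type and a different amount of RNA per cell cannot be told apart.

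Cox4i1 and Cox8a, both of complex IV, rose in microbead against naive retinas. Cox4i1 (ENSMUSG00000031818.12, GRCm38 chr8:120668222-120674207, plus strand) had 1754, 541 and 499 CPM in microbead libraries and 524, 567 and 175 in contralateral libraries. It had 169.8, 219.8, 252 and 166 CPM in sham and 226, 185, 147 and 229 CPM in naive libraries. Every microbead library was above every sham and naive library, while contralateral 1 and 2 lay among the microbead values. The fold change over naive was 4.73 (log2 2.24, SE 0.43, edgeR quasi-likelihood, adjusted p = 0.0415). Over sham it was 4.61 (adjusted p = 0.0664), and over contralateral 2.21 (adjusted p = 0.369), neither of which passed.

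Cox8a, which encodes a small membrane subunit of complex IV (ENSMUSG00000035885.4, chr19:7215153-7217616, minus strand), had 860.3, 231 and 248 CPM in microbead libraries. It had 149.6, 80.2 and 100.2 CPM in contralateral, 105, 85.8, 102 and 109 CPM in sham and 122, 89.1, 75.5 and 127 CPM in naive libraries. All 3 microbead libraries were above all 11 others, with microbead 1 far above the other microbead libraries. The fold change over naive was 4.30 (log2 2.11, SE 0.42, edgeR quasi-likelihood, adjusted p = 0.0426), over sham 4.45 (adjusted p = 0.0664) and over contralateral 4.05 (adjusted p = 0.0876).

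Those 2 of 77 members passed 0.05 after Benjamini-Hochberg adjustment over all genes, against 0.21% of all genes tested in that comparison. Over sham 0 members passed (background 0.014%) and over contralateral 0 (background 0.028%), with 29 higher and 1 lower at an unadjusted p below 0.05 over sham and 30 higher and 1 lower over contralateral. Over naive 29 were higher and 0 lower at that level. Of all 14279 genes tested, 639 were higher and 753 lower at that level over sham, 674 and 830 over naive, and 698 and 951 over contralateral. DESeq2 called 16 members over sham, 14 over naive and 16 over contralateral, and limma voom called 4 over sham, 4 over naive and 0 over contralateral. Of all 14279 genes, DESeq2 called 453, 567 and 644 in these comparisons and voom 89, 204 and 3. Members that DESeq2 called over both sham and naive included Cox4i1, Cox8a, Cox5a, Cox6a1, Uqcrh, Uqcr10, Ndufa12, Atp5g3, Atp5h and Sdhb. The 4 members that voom called over sham, Cox4i1, Cox8a, Cox7a2l and Uqcrh, were also those it called over naive. In edgeR's joint test of the 4 groups Cox4i1 and Cox8a passed (adjusted p = 0.0444 and 0.0428), against 0.224% of all genes.

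Both calls depended on single libraries. Without microbead 1 the log2 fold changes over naive were 1.38 for Cox4i1 (adjusted p = 0.167) and 1.19 for Cox8a (adjusted p = 0.225), and neither passed. They were also lost when any sham or any naive library was left out. At Cox4i1 the annotation places Emc8 on the opposite strand and Gm20388 on the same strand, and the sources used here do not say whether counting used strand. Emc8 had 1.44, 90.2 and 16.0 CPM in microbead and 33.1 to 40.6 CPM in naive libraries, and Gm20388 0, 21.9 and 19.3 CPM in microbead and 12.7 to 27.5 CPM in naive libraries.

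**Figure D1:**
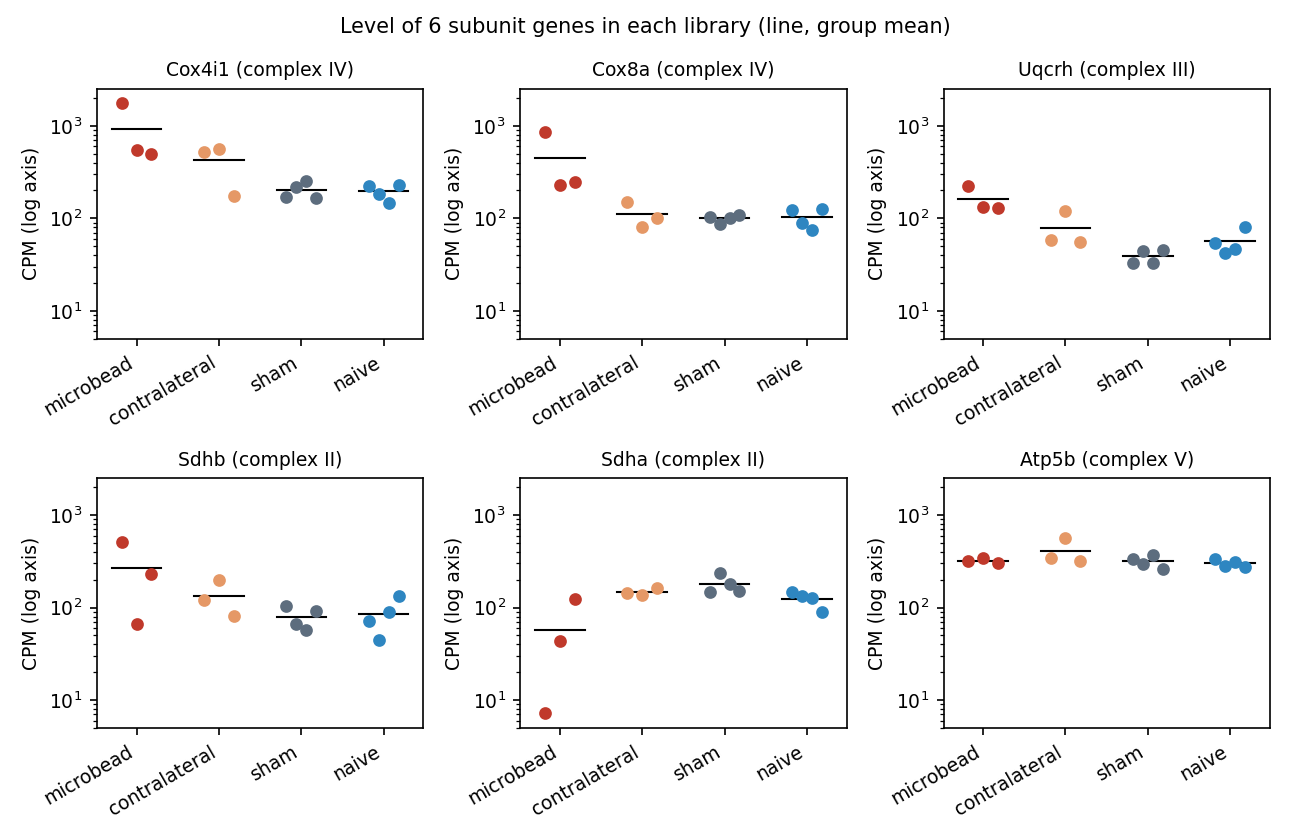
CPM of 6 subunit genes on a log axis in each library (points), by group, with the group mean as a line. Cox4i1, Cox8a and Uqcrh were higher in all 3 microbead libraries than in any sham or naive library, Sdha was lowest in microbead 1 at 7.18 CPM, and Atp5b lay between 263 and 561 CPM in all 14 libraries.

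Groups that did not overlap gave the same direction for more members than those 2. Over naive, every microbead library was above every naive library for 25 of 77 members (background 4.85%) and below for 0 (background 6.98%). Over sham these counts were 30 above (background 5.11%) and 1 below (background 7.08%), and over contralateral 20 above (background 5.2%) and 2 below (background 5.64%). Without microbead 1, both remaining libraries were above every naive library for 36 members (background 10.5%). In complex IV 9 of 13 members were above in the naive comparison, in complex I 11 of 36, in complex V 4 of 16, in complex III 1 of 8 and in complex II 0 of 4.

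**Figure D2:**
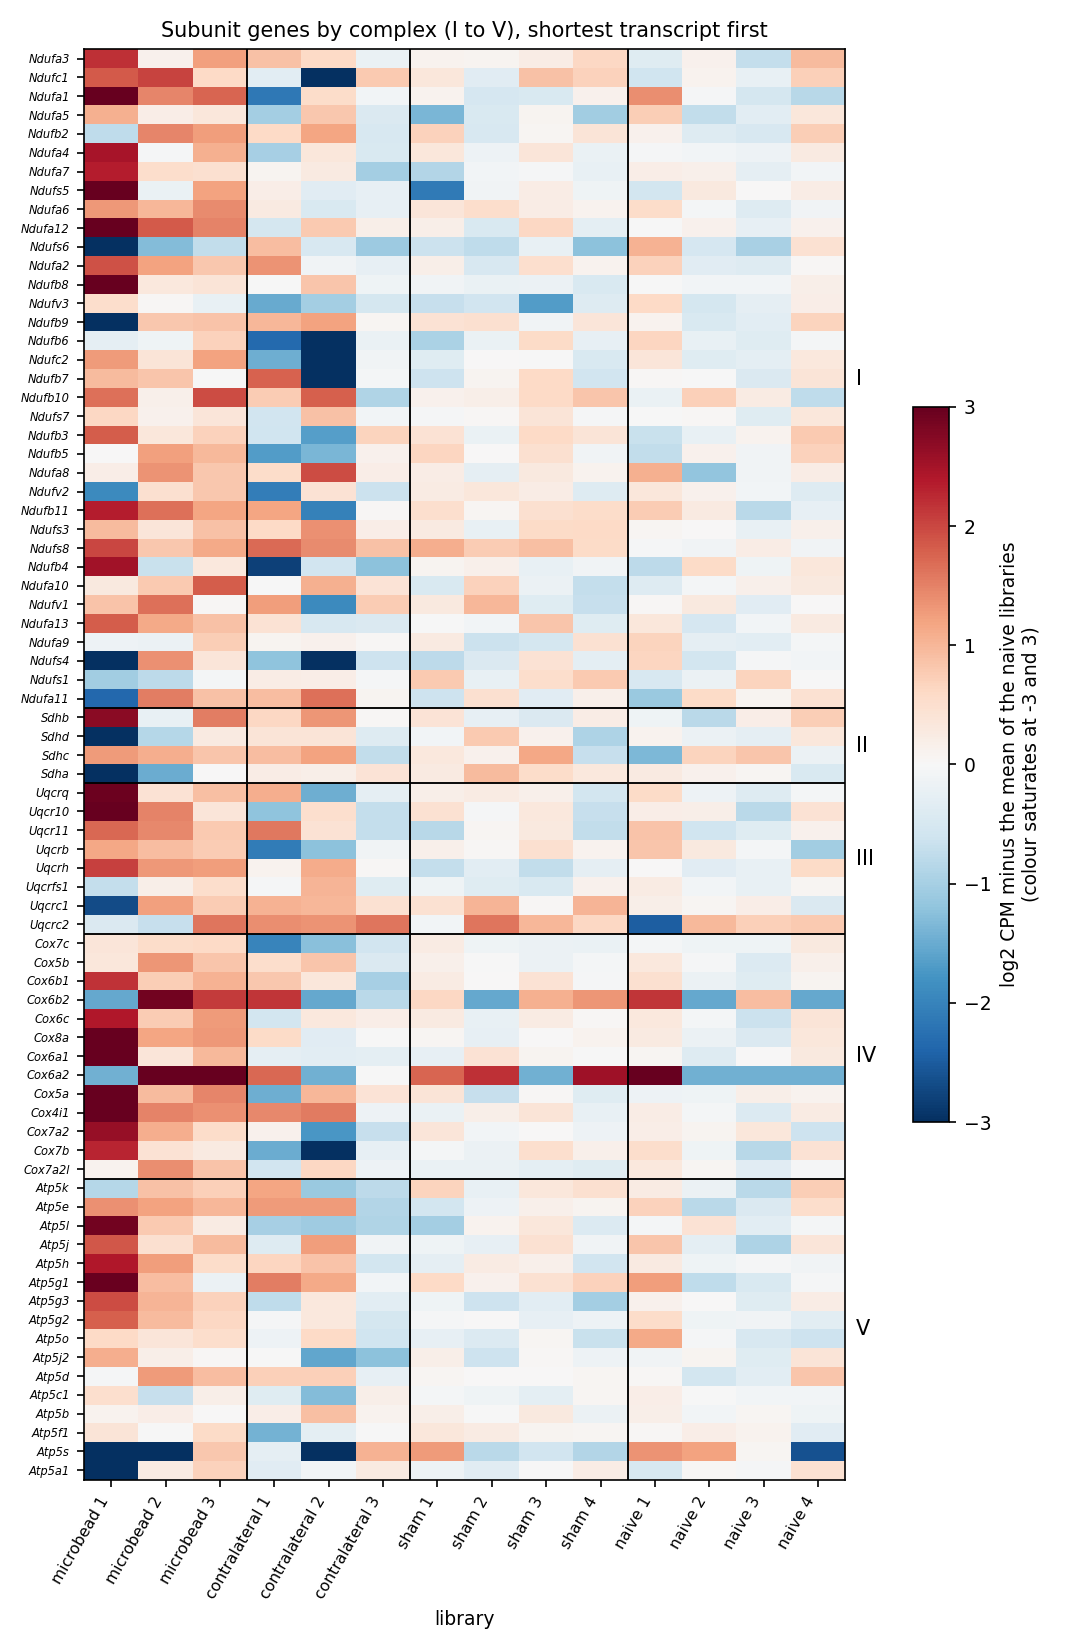
Difference of log2 CPM from the mean of the naive libraries for 76 of the 77 members that passed the filter (rows, by complex and from the shortest transcript) in the 14 libraries (columns). Red marks higher values and blue lower ones; microbead 1 is dark red for most short members and blue for Sdha, Sdhd and Atp5a1.

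Per library, the median member difference from the naive mean in log2 CPM was 1.15, 0.79 and 0.81 in microbead and 0.13, 0.32 and -0.15 in contralateral libraries. It lay between -0.07 and 0.15 in sham and between -0.25 and 0.20 in naive libraries. All 3 microbead libraries were thus above the other 11. Members took 1.21, 0.556 and 0.578% of all reads in microbead, 0.456, 0.477 and 0.442% in contralateral, 0.445 to 0.468% in sham and 0.421 to 0.489% in naive libraries. Without microbead 1 the median log2 fold change of the members was 0.73 over sham, 0.74 over naive and 0.71 over contralateral.

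Complex I, the NADH dehydrogenase, had 36 members that passed the filter, with a median log2 fold change of 0.85 over sham, 0.98 over naive and 0.89 over contralateral. Its peptides split into a catalytic core that carries flavin and iron-sulphur clusters and accessory subunits around it. Log2 fold changes over naive ran from -1.77 for Ndufs6 to 2.32 for Ndufa12. Among the nuclear-encoded core subunits Ndufs8, which holds iron-sulphur clusters near the quinone site, had 205, 90.6 and 112 CPM in microbead, 168, 137 and 95.1 in contralateral, 76.9 to 109 in sham and 47.6 to 60.1 in naive libraries. The naive libraries were below all 10 others.
The log2 fold changes of Ndufs8 over naive were 1.398 for microbead (SE 0.37), 1.37 for contralateral (SE 0.37) and 0.84 for sham (SE 0.35), with edgeR adjusted p of 0.121, 0.949 and 1.

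Other core subunits of complex I gave small or uneven differences. Ndufs3 had a log2 fold change over naive of 0.74 (SE 0.40) and Ndufs7, another iron-sulphur subunit, one of 0.36 (SE 0.42). Ndufv1, which binds NADH and flavin, had one of 0.99 (SE 0.61), and its partner Ndufv2 one of 0.17 (SE 0.63). Ndufs1, the largest core subunit, had one of -0.63 (SE 0.57), with 17.2, 20.5 and 34.4 CPM in microbead and 25.5 to 57.3 CPM in naive libraries, which overlap. None of these passed the test.

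Several of the larger increases in complex I belonged to short accessory subunits. By length, complex I members had a median log2 fold change over naive of 1.35 up to 600 bases. It was 0.74 from there to 1000 bases and 0.74 above, where 7 of 8 were positive. Ndufs6, the lowest, was also short, at 567 bases. It had 0, 6.14 and 9.23 CPM in microbead and 7.80 to 32.0 CPM in naive libraries, which overlap. The 0 was in microbead 1, the library with the fewest reads. Ndufb8, a membrane arm subunit, had 469, 63.2 and 66.4 CPM in microbead and 48.2 to 57.4 CPM in naive libraries. Microbead 1 was far above the rest and microbead 2 and 3 were just above the naive range (log2 fold change 1.96, SE 0.57, edgeR adjusted p = 0.171). Ndufa12 had 101, 42.2 and 32.8 CPM in microbead and 9.71 to 12.7 CPM in naive libraries, and its groups were well separated (log2 fold change 2.32, SE 0.76, adjusted p = 0.254). Ndufa7 had 218, 61.7 and 59.9 CPM in microbead and 35.3 to 49.4 CPM in naive libraries. Ndufa4 had 299, 52.0 and 112 CPM in microbead and 48.2 to 64.2 CPM in naive libraries, with microbead 2 inside the naive range. The shortest complex I member that passed the filter, Ndufa3, had 62.5, 14.7 and 32.2 CPM in microbead and 8.20 to 26.2 CPM in naive libraries, which overlap. Its longest, Ndufa11, had 3.59, 56.1 and 35.2 CPM in microbead and 8.81 to 28.6 CPM in naive libraries.

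Complex II, succinate dehydrogenase, held members on both sides of 0. Sdha, the flavoprotein that oxidises succinate (ENSMUSG00000021577.13, chr13:74322254-74350280, minus strand), had 7.18, 43.3 and 122 CPM in microbead, 143, 137 and 161 CPM in contralateral, 147 to 236 CPM in sham and 88.8 to 147 CPM in naive libraries. All microbead libraries were below all sham and contralateral libraries, but microbead 3 lay inside the naive range. A processed pseudogene, Gm16125, overlaps Sdha on the opposite strand. The log2 fold change of Sdha was -1.62 over sham (SE 0.57, edgeR adjusted p = 0.358), -1.08 over naive (adjusted p = 0.506) and -1.33 over contralateral (adjusted p = 0.413).

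Sdhb, the iron-sulphur subunit that takes electrons from Sdha (ENSMUSG00000009863.14, chr4:140961203-140979193, plus strand), lay on the other side of 0. It had 516, 66.8 and 228 CPM in microbead, 120.4, 198 and 80.3 CPM in contralateral, 57.7 to 105 CPM in sham and 45.0 to 132 CPM in naive libraries. Microbead 1 and 3 were above all others, while microbead 2 was within the sham and naive ranges (log2 fold change over naive 1.67, SE 0.53, edgeR adjusted p = 0.235). Of the membrane anchors, Sdhd had 0.718, 41.4 and 90.5 CPM in microbead and 62.3 to 95.2 CPM in naive libraries, and Sdhc 32.3, 28.3 and 23.9 CPM in microbead and 5.15 to 24.04 CPM in naive libraries. None of the 4 passed in edgeR over sham, naive or contralateral with all libraries. DESeq2 called Sdhb, like members of the other complexes, over sham, over naive and in the joint test. Without microbead 3 edgeR called Sdha over sham and over contralateral. That fit rests on microbead 1, with 10 reads of Sdha, and microbead 2. In it 134 of 15306 genes passed over sham and 162 over contralateral. In microbead 1 Sdhb had 516 and Sdhc 32.3 CPM, while Sdha had 7.18 CPM from 10 reads and Sdhd 0.718 CPM from 1 read. The median log2 fold change of complex II was 0.04 over naive and -0.08 over sham, and 0.24 and 0.13 without microbead 1.

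Complex III, the cytochrome bc1 complex, had a median log2 fold change of 1.18 over sham, 1.03 over naive and 0.86 over contralateral, with the higher values in its short subunits. Uqcrh, the hinge protein between cytochrome c1 and cytochrome c, had 226, 134 and 129.6 CPM in microbead, 58.4, 119 and 55.7 CPM in contralateral, 33.2, 43.9, 32.8 and 45.3 CPM in sham and 54.6, 42.6, 46.4 and 81.3 CPM in naive libraries. All 3 microbead libraries were above all 11 others. The log2 fold change was 2.07 over sham (SE 0.43, edgeR adjusted p = 0.0708), 1.53 over naive (adjusted p = 0.139) and 1.07 over contralateral (adjusted p = 0.394).
Uqcr10 had 223, 44.1 and 20.03 CPM in microbead and 8.84 to 21.0 CPM in naive libraries, with microbead 3 inside the naive range (log2 fold change 2.54, SE 0.79). Uqcrq had 264, 46.2 and 64.0 CPM in microbead and 26.4 to 51.7 CPM in naive libraries, and Uqcr11 98.4, 80.5 and 51.1 CPM in microbead and 19.3 to 54.0 CPM in naive libraries. Uqcrfs1, the Rieske iron-sulphur protein of the catalytic core, had 43.1, 80.2 and 103 CPM in microbead and 60.7 to 84.1 CPM in naive libraries, which overlap (log2 fold change 0.08, SE 0.44, edgeR adjusted p = 0.982).

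Complex IV, cytochrome c oxidase, had the highest median of the 5 complexes, a log2 fold change of 1.55 over sham, 1.60 over naive and 1.67 over contralateral, and all 13 members that passed the filter were positive in each comparison. Its catalytic core is encoded in the mitochondrial genome, so these members are the supporting subunits. Beside Cox4i1 and Cox8a, Cox5a had 237, 52.8 and 76.0 CPM in microbead and 24.4 to 30.8 CPM in naive libraries, and the groups did not overlap (log2 fold change 2.15, SE 0.64, edgeR adjusted p = 0.183). Cox6a1 had 453, 69.6 and 106 CPM in microbead and 41.2 to 65.8 CPM in naive libraries (log2 fold change 1.94, SE 0.51, adjusted p = 0.119). Cox6b1, which lies on the side where cytochrome c binds, had 284, 106 and 130 CPM in microbead and 49.4 to 87.6 CPM in naive libraries.
Cox7a2 had 211, 73.7 and 50.8 CPM in microbead and 22.5 to 43.5 CPM in naive libraries. Cox7a2l, the supercomplex factor, had 187, 455 and 315 CPM in microbead, 116, 265 and 157 CPM in contralateral, 134 to 151 CPM in sham and 138 to 214 CPM in naive libraries. Unlike Cox7a2 it was lower in microbead 1 than in microbead 2 and 3. Its log2 fold change was 0.86 over naive (edgeR adjusted p = 0.393) and 1.15 over sham (adjusted p = 0.22). Cox7c, the shortest member of complex IV that passed the filter, had 49.6, 55.7 and 57.6 CPM in microbead and 35.0 to 46.9 CPM in naive libraries, which do not overlap (log2 fold change 0.50, adjusted p = 0.844). Cox7b had 131, 36.1 and 32.2 CPM in microbead and 15.0 to 38.4 CPM in naive libraries, which overlap. Without microbead 1 the median log2 fold change of complex IV was 1.10 over sham, 1.05 over naive and 1.16 over contralateral.

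Complex V, the ATP synthase, had a median log2 fold change of 0.79 over sham, 0.60 over naive and 0.62 over contralateral, with values near 0 in its catalytic head. Atp5b, the catalytic beta subunit, had 321, 343 and 303 CPM in microbead, 342, 561 and 320.5 CPM in contralateral, 263 to 368 CPM in sham and 274 to 336 CPM in naive libraries. Its log2 fold change was 0.10 over naive (SE 0.26, adjusted p = 0.96 in edgeR) and 0.03 over sham (SE 0.26). Atp5a1, the alpha subunit of the same head, had 20.1, 269.7 and 369.7 CPM in microbead and 165 to 315 CPM in naive libraries, a log2 fold change of -0.09 (SE 0.55). Atp5c1, the gamma subunit of the central stalk, had 206, 90.2 and 164 CPM in microbead and 136 to 167 CPM in naive libraries. The lowest value of Atp5a1 was in microbead 1, whereas Atp5b was level there.
The genes for the membrane ring, Atp5g1, Atp5g2 and Atp5g3, encode the same mature c subunit and stood higher in microbead 1. Atp5g3 had 203, 107 and 84.7 CPM in microbead and 40.6 to 61.6 CPM in naive libraries, which do not overlap (log2 fold change 1.31, SE 0.46, edgeR adjusted p = 0.316). Atp5g2 had 99.8, 55.4 and 43.8 CPM in microbead and 22.8 to 41.6 CPM in naive libraries. Atp5g1 had 279, 67.5 and 31.5 CPM in microbead and 20.8 to 85.4 CPM in naive libraries, which overlap. Atp5h, of the peripheral stalk, had 302, 136 and 83.1 CPM in microbead and 52.2 to 68.2 CPM in naive libraries (log2 fold change 1.59, SE 0.46, adjusted p = 0.171). Atp5l, a membrane subunit, had 229, 53.1 and 36.6 CPM in microbead and 24.4 to 41.7 CPM in naive libraries. Atp5e had 84.7, 75.7 and 65.5 CPM in microbead and 18.6 to 52.9 CPM in naive libraries. Atp5k, the shortest member that passed, had 2.87, 9.93 and 8.87 CPM in microbead and 2.95 to 9.04 CPM in naive libraries. Atp5s, the coupling factor, had 0, 0 and 9.93 CPM in microbead and 0.740 to 14.5 CPM in naive libraries.

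**Figure D3:**
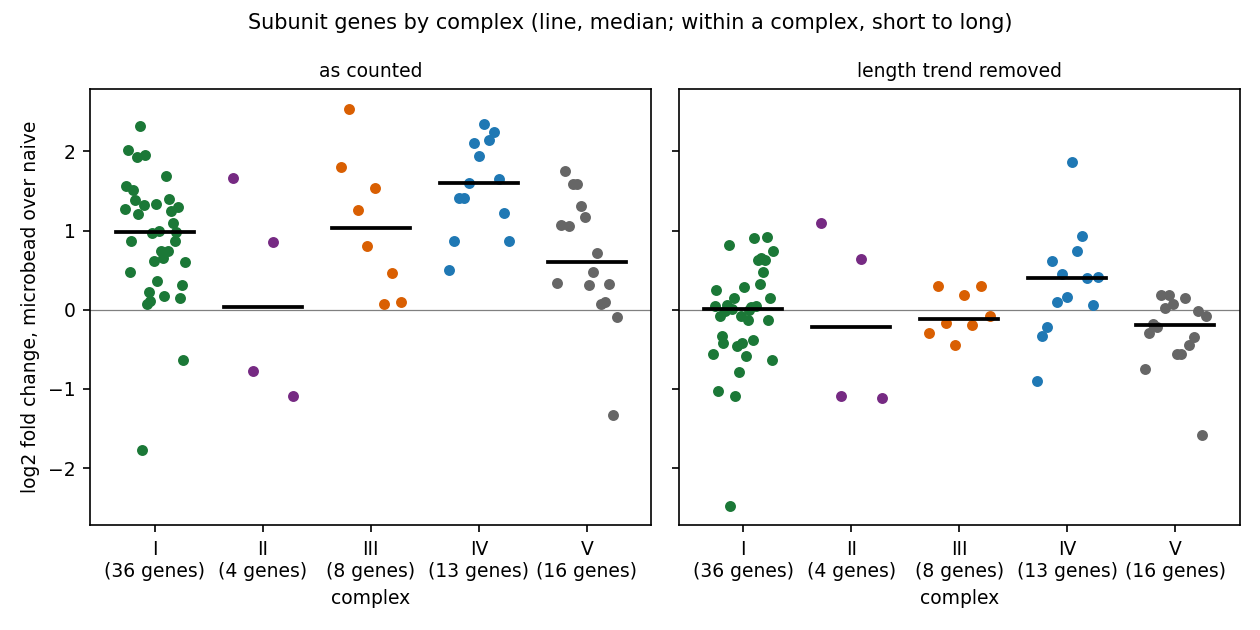
Log2 fold change of microbead over naive for each member (points, short to long transcripts within a complex) as counted (left) and with the length trend removed (right), with the median of each complex as a line. The medians of 0.98, 0.04, 1.03, 1.60 and 0.60 for complexes I to V as counted stand at 0.01, -0.22, -0.12, 0.40 and -0.20 with the trend removed.

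Transcript length moved with these differences. Members had a median length of 704 bases against 2091 for all genes tested, and 72.7% of them were at most 1000 bases long against 15.0% of all genes tested. Over naive, the 27 members of at most 600 bases had a median log2 fold change of 1.41, and 181 other genes of that length with a mean of at least 10 CPM had 1.49. The 29 members of over 600 and up to 1000 bases had 1.06, and 644 other genes 0.71. The 21 members above 1000 bases had 0.32, and 7821 other genes -0.12. Against these well-read genes the members had a lower median in the shortest class and a higher one in the longer classes. That order depended on the minimum of 10 CPM, since over naive all other genes tested had 0.69 in the shortest class (641 genes), 0.40 in the next (1440 genes) and -0.22 in the longest (12121 genes), each below the members.

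Over sham the same classes gave 1.41, 0.98 and 0.24 for the members and 1.60, 0.71 and -0.13 for the other genes of at least 10 CPM. Over contralateral they gave 1.53, 1.18 and -0.02 for the members and 1.35, 0.51 and -0.14 for those other genes. Across the 77 members, Spearman's rho between length and log2 fold change was -0.50 over naive, -0.55 over sham and -0.48 over contralateral. These are descriptions across genes of the same libraries, which share depth and preparation. In the contralateral, sham and naive libraries among themselves, rho lay between 0.03 and 0.20.

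**Figure D4:**
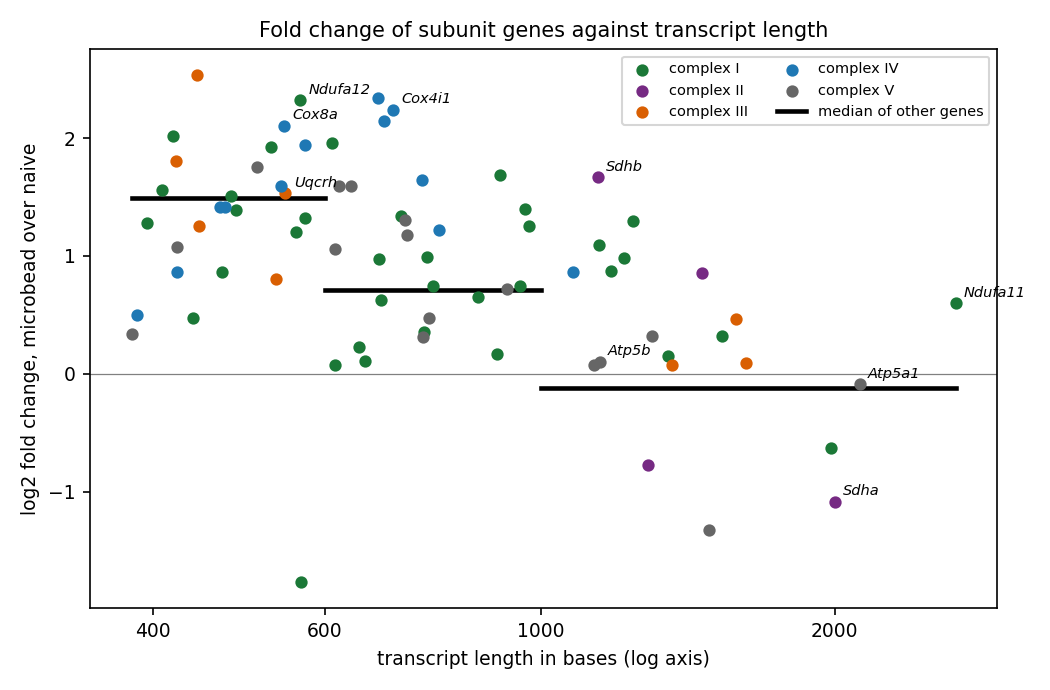
Log2 fold change of microbead over naive for the 77 members against transcript length in bases (log axis), coloured by complex. Black lines give the median of other genes with a mean of at least 10 CPM in the same length class, 1.49 up to 600 bases, 0.71 over 600 and up to 1000, and -0.12 above.

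By library, members of at most 600 bases differed from the naive mean by 2.05, 0.92 and 0.98 in log2 CPM in microbead 1, 2 and 3. Those above 1000 bases differed by -0.42, 0.20 and 0.75. Microbead 1 thus held both the highest short members and the lowest long ones, while in microbead 3 both classes were above the naive mean. In contralateral, sham and naive libraries the medians of the short members ran from -0.42 to 0.27 and those of the long members from -0.01 to 0.21.

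With a trend of log2 CPM on length removed within each library, the members' median log2 fold change was -0.08 over sham, -0.00023 over naive and 0.19 over contralateral, and 0 members passed in any of the 3. All genes tested then had medians of -0.23 over sham, -0.25 over naive and -0.17 over contralateral. In the 3 length classes, shortest first, the members' medians over naive were -0.17, 0.05 and -0.01, and those of other genes of at least 10 CPM -0.08, -0.17 and -0.11. Over naive, every microbead library was then above every naive library for 5 members (background 2.88%) and below for 6 (background 9.61%). Complex IV kept a positive median, 0.42 over sham, 0.40 over naive and 0.62 over contralateral, with 8, 10 and 12 of 13 members positive, and 0.17, 0.21 and 0.39 with microbead 1 and contralateral 2 also left out. Over naive, Cox4i1 then stood at 0.94 on the log2 scale (SE 0.26, edgeR adjusted p = 0.396) and Cox8a at 0.45 (SE 0.34, adjusted p = 0.783). Sdha then stood at -1.12 (edgeR adjusted p = 0.579) and Sdhb at 1.10 (adjusted p = 0.555). With microbead 1 and contralateral 2 also left out, a choice made after seeing the data, the members' median was 0.09 over sham, 0.12 over naive and 0.23 over contralateral. Whether length, depth or cell state set the differences was not tested.

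Summed per complex as FPKM, which the authors scaled to length, the members of complexes I, III and IV were highest in the microbead libraries. FPKM divides a gene by its length within each library, which does not take out a trend with length between libraries. These sums are thus no control for length. Complex IV summed to 12295, 4633 and 4453 FPKM in microbead, 2718, 2598 and 2360.3 in contralateral, 2581 to 2878 in sham and 2361 to 2994 in naive libraries. Complex I summed to 9527, 4308 and 4683 FPKM in microbead and 2984 to 3608 in naive libraries, and complex III to 4319, 1789 and 1455 FPKM in microbead and 954 to 1313 in naive libraries. All microbead libraries were above all others in these 3 complexes. In complex V microbead 3, with 2634 FPKM, lay below naive 1 with 2896 FPKM. In complex II microbead 2, with 146 FPKM, was the lowest library of all and microbead 1, with 621 FPKM, the highest.

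**Figure D5:**
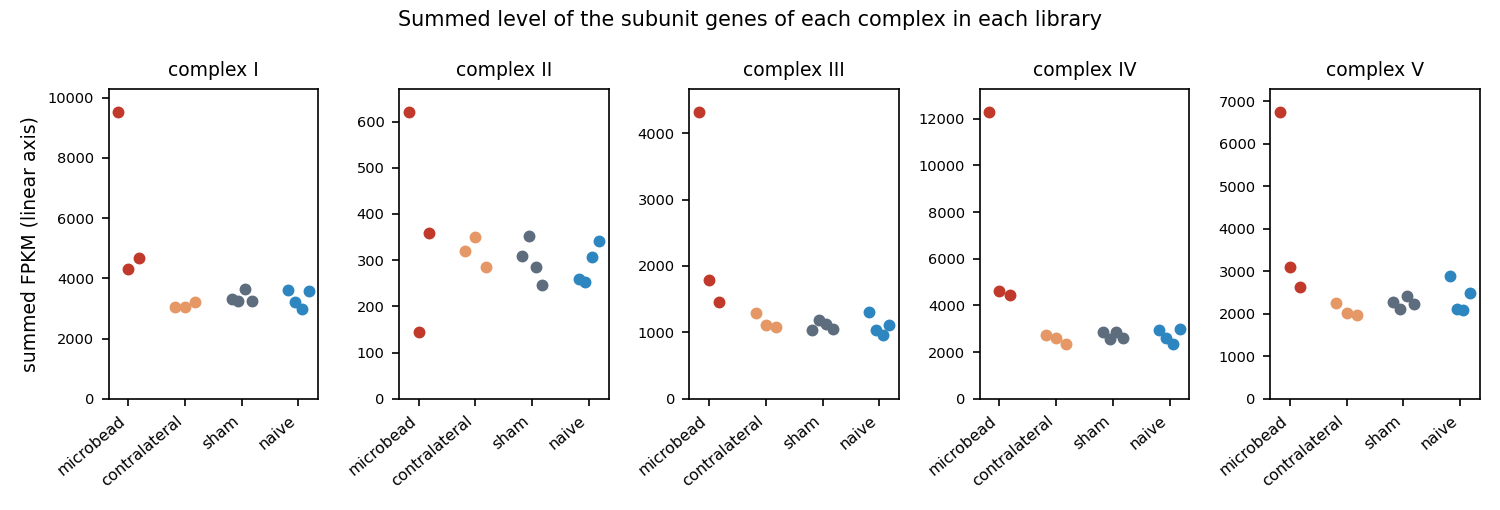
Summed FPKM of the subunit genes of each complex in each library (points) by group, on linear axes from 0. Microbead 1 is the highest library in every complex, for example 12295 FPKM in complex IV, and microbead 2 is the lowest in complex II with 146 FPKM.

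The 3 groups without microbeads were also compared with each other. None of the 77 members passed in contralateral against sham, contralateral against naive or sham against naive (background 0.0% of all genes in each, edgeR quasi-likelihood). At an unadjusted p below 0.05, 2 members were higher and 0 lower in contralateral against sham, 2 and 0 in contralateral against naive, and 1 and 0 in sham against naive. Of all 14279 genes, 398 were higher and 296 lower, 414 and 326, and 187 and 193 in the same order. DESeq2 and limma voom called 0 members in each. Of all 14279 genes, DESeq2 called 59 in contralateral against sham, 64 in contralateral against naive and 26 in sham against naive, and voom 0 in each. The members' median log2 fold change was 0.14 for contralateral over sham, 0.07 for contralateral over naive and -0.05 for sham over naive. Cox4i1 had a log2 fold change of 1.06 for contralateral over sham (edgeR adjusted p = 0.963) and of 1.10 for contralateral over naive (edgeR adjusted p = 0.949).

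Other genes of oxidative metabolism, whose transcripts are mostly longer, were counted in the same way. Of the 46 assembly factors of complexes I to V tested, 0 passed over naive, with a median log2 fold change of -0.0037 and a median length of 1275 bases. Cox14, which helps to build complex IV, had one of 1.62 (SE 0.59, edgeR adjusted p = 0.342). Ndufaf6, an assembly factor of complex I, had one of -4.64 (SE 2.00, adjusted p = 0.436). Ndufaf6 was low in microbead libraries, at 0.52 ± 0.90 CPM (SD, n = 3), against 14.8 ± 5.82 CPM in naive libraries (n = 4). At an unadjusted p below 0.05, 1 assembly factor was higher and 2 were lower, against 674 higher and 830 lower of all 14279 genes. Of 20 genes of the tricarboxylic acid cycle and pyruvate dehydrogenase 0 passed, with a median of 0.11. Of 13 genes of coenzyme Q synthesis, 0 passed with a median of -0.56, and of 21 genes of import and carriers 0 passed with a median of 0.54. Of 13 regulators of mitochondrial biogenesis 0 passed, with a median of -0.10. Among 5 chain genes outside the name rule 0 passed, with 4 positive and a median of 0.82. Their median length was 704 bases, as short as that of the members. With the length trend removed their median was -0.44. Atpif1, the inhibitor of ATP synthase, had a log2 fold change of 1.03 (SE 0.48) as counted.

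The subunits encoded in the mitochondrial genome, partners of these members in complexes I, III, IV and V, were counted too. Their median length was 784 bases. Their median log2 fold change was 0.92 over sham, 0.98 over naive and 2.59 over contralateral. With the length trend removed these medians were 0.03, 0.25 and 1.65. Of 13, 0 passed over sham, 0 over naive and 1 over contralateral, with 13, 12 and 13 positive. That 1 was mt-Co2, which takes electrons from cytochrome c in complex IV, at 1553 ± 980.2 CPM in microbead (SD, n = 3), 97.5 ± 68.1 in contralateral (n = 3), 577 ± 158 in sham (n = 4) and 504 ± 109.6 in naive libraries (n = 4). Its log2 fold change over contralateral was 3.99 (SE 0.53, edgeR adjusted p = 0.00756) and over naive 1.62 (SE 0.44, adjusted p = 0.13). The call over contralateral was lost with the compared groups alone, with the length trend removed, with the replicate number as a block and without contralateral 2, where 0 genes passed in edgeR. Its contralateral libraries were the lowest of the 4 groups on average. Cox4i1, its nuclear-encoded partner in complex IV, averaged 932 ± 713 CPM in microbead (n = 3), 422 ± 215 in contralateral (n = 3), 202 ± 41.6 in sham (n = 4) and 197 ± 39.1 in naive libraries (n = 4).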

How the data were processed

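Each library had its own deposited table with expected counts, which per the file headers are estimated reads per gene that the authors scaled to neither depth nor length, and FPKM, which the authors scaled to length and depth. A series-wide table of deposited FPKM gave the symbols, and 0 of its values lay over 0.006 away from the single table. Per the submitters' processing notes, Salmon 1.4.0, R 4.0.3, DESeq2 1.30.1 and build mm10 were used; their roles, and whether counting used strand, are not given in the sources used here.

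Here expected counts were rounded and fitted in R 4.3.3 with edgeR 4.0.16: filterByExpr with a minimum count of 10 (14279 genes kept), TMM, and 1 robust quasi-likelihood model over all 14 libraries with a coefficient per group, two-sided tests and Benjamini-Hochberg adjustment over all genes (threshold 0.05). SEs were derived from each log2 fold change and its quasi-likelihood F. For the length trend, lowess (span 0.5) was run per library on log2 CPM against log2 length, over genes of at least 10 CPM, and the curve was taken out through offsets. Alternatives used limma 3.58.1 and DESeq2 1.42.0. The fits were tested on simulated counts whose spread between libraries was capped below that of the real data. The common biological coefficient of variation of the real data was 1.13. The simulation therefore does not show how the fits behave at the real spread. Depth ran from 1.34 M to 13.996 M reads, and intervals from the fit cover the spread between libraries.

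Members and lists were chosen with earlier results of these data known. Members named in the text are those past the threshold, up to 4 per complex with the smallest p over naive, the 3 of highest FPKM per complex, all of complex II, paired forms of a subunit, catalytic core subunits, the 3 shortest and 3 longest, members that are no subunits, and up to 3 genes per related list with the smallest p. Items that these rules name and that the text leaves out are not reported here. Ndufs6 was named after its value was seen. Same-numbered libraries of different groups showed little shared deviation, which cannot tell whether any came from the same mouse. No label ties libraries to mice, so the numbers were not used to pair them. Whether a microbead and a contralateral library came from the same mouse is unknown.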

Additional observations from a re-analysis of the deposited data

Results flagged for a closer look

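For 39 named members with a mean of at least 10 CPM, the 78 groups of 4 libraries (sham and naive) were searched for a library far from the other 3 by Dixon's criterion, which chance meets in about 1 group in 20. It was met in 3 of the 78. Cox7c had 45.2 CPM in sham 1 and 33.2 to 34.9 CPM in the other sham libraries, and 46.9 CPM in naive 4 and 35.0 to 36.7 CPM in the other naive libraries. Uqcrq had 23.5 CPM in sham 4 and 38.1 to 40.8 CPM in the other sham libraries.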

How the results depend on the processing

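Over naive, where 2 members passed in edgeR, 14 passed by DESeq2 and 4 by limma voom; 0 passed with the compared groups alone, with rod gene level as a covariate, with the length trend removed, without the 2 libraries under 12000 genes, and with both of the last together. Over sham, where 0 passed, 3 passed without a filter, 16 by DESeq2 and 4 by voom, and over contralateral, where 0 passed, 2 without a filter and 16 by DESeq2. In the joint test of the 4 groups, where 2 passed, 4 passed without a filter and 20 by DESeq2, and 0 with the rod covariate, with the length trend removed, without the 2 libraries and with both together. Of all 14279 genes, DESeq2 called 453 over sham, 567 over naive, 644 over contralateral and 478 in the joint test. Voom called 89 over sham and 204 over naive. Without a filter 139 of 25656 genes passed over sham, 157 over contralateral and 314 in the joint test. Leaving out each library gave 0 to 6 members over sham, 0 to 4 over naive, 0 to 4 over contralateral and 0 to 2 in the joint test. Over naive, 4 passed without microbead 3 and 0 without microbead 1, any sham or any naive library. Without microbead 3, 134 of 15306 genes passed over sham, 168 over naive and 162 over contralateral. The 19 same-numbered pairs gave correlations from -0.0457 to 0.108, 1 of them over 0.1. No pair is known to come from the same mouse, so these values cannot tell whether any did. With the replicate number as a block 0 members passed over naive and 0 in the joint test.

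With the length trend removed, medians turned for the members (-0.085 over sham, -0.00023 over naive), complex I (-0.19 over sham), complex II (-0.22 over naive), complex III (-0.16 over sham, -0.12 over naive, -0.26 over contralateral) and complex V (-0.16 over sham, -0.20 over naive; -0.11 and -0.18 with the 2 libraries also left out, a choice made after seeing the data). Over naive 38 of the 77 members were then positive, against 71 as counted; Ndufa3 (-0.55), Ndufa7 (-0.42), Ndufs7 (-0.58), Ndufv2 (-0.38), Atp5l (-0.18), Ndufa4 (-0.33), Uqcr11 (-0.17) and Uqcrq (-0.29) were among those that turned. With the 2 libraries also left out, negative values included Atp5g1 (-0.40), Atp5l (-0.35), Cox6a1 (-0.11), Ndufa4 (-0.29), Ndufb8 (-0.42) and Uqcrq (-0.30). DESeq2's size factors put the members' median over naive at 1.12. The cause of these changes was not tested. Depth limits microbead 1 most.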
